A study of Mus musculus with 7 samples.

Results

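The genes of the Six-Eya network were followed in single-cell RNA-seq of neural crest cells (NCCs) from control and Tbx1 null mouse embryos. The members were Six2, Six4, Six5, Eya1, Eya2, Eya3 and Eya4, matched by gene symbol, and made up 7 of the 32285 gene identifiers that were counted. All 7 had UMIs in each of the 7 libraries and all 7 passed the filter on low counts in the mesenchymal comparisons. Six2 did not pass it in the Sox10 and neural progenitor comparisons between genotypes, where its counts were close to 0.

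Six-family proteins are homeodomain transcription factors related to the sine oculis protein of the fly. Eya proteins, related to eyes absent, do not bind DNA themselves. They join Six-family proteins on their targets as co-activators and also carry a protein phosphatase activity. Dach proteins and Groucho-type corepressors of the Tle group act on the same complexes, Sobp binds Six-family proteins, and Pax factors often act in the same network. In the vertebrate head and trunk this network is known for its roles in the ear, the cranial sensory ganglia, the kidney, muscle and the facial skeleton.

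Embryos of every group were on a mixed Swiss-Webster background and carried Wnt1-Cre and the ROSA-EGFPf reporter, which marks cells that have expressed Wnt1-Cre, so that NCCs and part of the dorsal neural tube and its progeny carry EGFP. Control embryos (Wnt1-Cre/+;ROSA-EGFPf/+) gave 1 library at E8.5, 1 at E9.5 and 2 at E10.5. Tbx1 null embryos gave 1 library at E9.5 and 2 at E10.5. The titles call these 3 libraries Tbx1 null, and the study's own account of its libraries gives Tbx1-/-, whereas their genotype label reads Wnt1-Cre/+;Tbx1+/-;ROSA-EGFPf/+. They are named here by their titles. Each library was a pool of at least 2 embryos of 1 genotype, and EGFP-positive cells without DAPI staining were sorted. The anterior part of the embryo was used at E8.5, the pharyngeal apparatus with heart and neural tube at E9.5, and the same region without the first arch at E10.5, so stage and dissection cannot be told apart. The chemistry also differed, with 10x kit version 2 at E8.5, 3 for the E9.5 null library and replicate 1 of the E10.5 null libraries, and 3.1 for the other 4 libraries.

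The libraries held 140264662 to 234844769 UMIs (unique molecular identifiers, the counted RNA molecules), and 5593 to 9621 cells per library were kept. Pairs of libraries shared 0 to 27 cell barcodes, at most 0.324% of the smaller library, which was for the control libraries of E10.5 (22 barcodes). Cells were classed by the UMIs of a few genes. Mesenchymal cells had at least 2 UMIs of Twist1, Prrx1 and Prrx2 together and fewer than 2 of Sox10. Those cells were divided by axial level into cells with a UMI of Hoxa3, Hoxb3 or Hoxd3 (Hox 3 cells), cells with Hoxa2 and no Hox 3 UMI (Hoxa2 cells), and cells with neither (cells without Hox). They were also divided by position along the arch into cells with Hand2, cells with Dlx5 or Dlx6 and no Hand2, and cells with none of these, called proximal here. Sox10 cells (glial and early migratory NCCs express this gene), neural progenitor cells (Sox1, Sox2, Sox3 and Pax6) and neurons (Elavl3 and Elavl4) made up the other classes. The genes of the mesenchymal rule, which sets this difference, summed to 326.9 to 1455.4 counts per 1000000 UMIs of the class (CPM) in mesenchymal cells against 6.3 to 25.6 in the Sox10, neural progenitor and neuron classes. A class rests on detected UMIs, so that a shallow cell can fall short of a class it belongs to.

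The mesenchymal cells of replicate 2 of the Tbx1 null libraries at E10.5 stood apart. The 4 neuronal markers summed to 321.8 CPM there, against 27.5 and 16.9 in the controls and 44.7 in null replicate 1, and neural progenitor markers summed to 188.4 CPM against 40.8, 7.5 and 88.9. All 4 genes of each list were detected in every E10.5 library. Blood markers reached 8.6 CPM in that library and 0.0 to 1.0 elsewhere. Of the tissues in which this network is best known, otic epithelium markers summed to 0.6 to 4.4 CPM over the 7 libraries, with Oc90 at 0 in 4 of them. Markers of branchiomeric muscle and cranial mesoderm (Myf5, Myod1, Tcf21, Msc and Tbx1) summed to 1.0 to 10.9. Tbx1 alone was at 0.690 to 8.74 CPM, so that sum is not a measure of muscle RNA. Epithelial and placode markers summed to 14.5 to 57.1, with Cdh1 at 0 in 3 libraries. Values are therefore given also without mesenchymal cells that had 2 or more neuronal or neural progenitor UMIs, which left 2923 and 6450 cells in the controls and 2215 and 1026 in the null libraries. In those cells the neuronal sum was 6.5, 7.5, 6.6 and 50.3 CPM. Tbx1 itself was counted in E10.5 mesenchymal cells at 8.74 and 5.03 CPM in the controls and 6.49 and 7.78 in the null libraries, and in neural progenitor cells at 2.36 and 2.27 against 0.0663 and 0.137. The counted tags come from the 3′ end and may lie outside the deleted part, so that these values do not check the labels.

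Six2, the member with the steepest differences between classes, lies on the minus strand of chromosome 17 (chr17:85684277-85688274, mm10), Six4 on the minus strand of chromosome 12 (chr12:73099609-73113456) and Six5 on the plus strand of chromosome 7 (chr7:19094594-19098549). The bases just before their RefSeq starts (GRCm38.p6) are shown because Six2 was patterned and Six4 and Six5 much less so. They read 5′ to 3′ on the strand of each gene, stop where an annotated exon begins, and carry capitals at each match of TAAT or its reverse complement ATTA, the core that many homeodomain proteins read, overlapping matches included.
Six2, chr17:85688275-85688504, minus strand: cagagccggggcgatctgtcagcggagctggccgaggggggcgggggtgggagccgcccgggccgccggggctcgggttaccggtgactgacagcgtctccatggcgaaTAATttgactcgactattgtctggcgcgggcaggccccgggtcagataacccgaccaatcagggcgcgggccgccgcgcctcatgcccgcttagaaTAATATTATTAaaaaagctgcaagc
Six4, chr12:73113457-73113675, minus strand: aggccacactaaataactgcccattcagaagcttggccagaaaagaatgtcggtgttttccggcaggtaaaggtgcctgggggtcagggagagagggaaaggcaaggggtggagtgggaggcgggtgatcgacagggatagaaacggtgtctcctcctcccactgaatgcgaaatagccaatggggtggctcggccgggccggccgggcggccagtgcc
Six5, chr7:19094294-19094543, plus strand: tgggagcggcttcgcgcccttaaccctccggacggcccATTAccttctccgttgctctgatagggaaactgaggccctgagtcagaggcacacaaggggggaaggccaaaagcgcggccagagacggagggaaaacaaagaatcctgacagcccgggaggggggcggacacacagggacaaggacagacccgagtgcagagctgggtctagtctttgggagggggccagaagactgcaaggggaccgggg
The window of 250 bases before the Six2 start held 4 matches, that of Six5 held 1, and the Six4 window shown and those of Eya3 and Eya4 held 0. A window before a second Six4 start, most of it exonic and not shown, held 1. Of 32851 windows of 250 bases in the table, 54.92% held at least 1 match and 9.622% held 4 or more. The MEF3 core TCAGGTT (reverse complement AACCTGA), a site that Six-family proteins bind, was in 3.492% of all windows. It was in the exonic Six4 window just named and in none of the printed sequences. These matches are a description of the letters and show no binding.

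At E10.5 Six2, a factor known for holding nephron progenitors in an undifferentiated state, was highest in mesenchymal Hox 3 cells. Its level there was 17.4 CPM in control replicate 1 (95% Poisson interval 15.98 to 18.99), 19.4 in control replicate 2 (17.92 to 21.04), 25.1 in null replicate 1 (23.71 to 26.64) and 29.1 in null replicate 2 (27.36 to 30.83). In Hoxa2 cells it was 2.13 and 1.84 CPM in the controls and 6.16 and 17.5 in the null libraries. In cells without Hox it was 2.79, 1.817, 3.104 and 10.6 CPM. Among the Hox classes and the classes outside the mesenchyme, Hox 3 cells were thus the highest in each of the 4 libraries, and the Hoxa2 cells of null replicate 2 were the single sum of another class that reached the lowest Hox 3 sum. Outside the mesenchyme Six2 stayed at or below 0.915 CPM in Sox10 cells, 0.752 in neural progenitor cells and 1.05 in neurons, and in these classes null replicate 2 was the highest library. Sox10 cells of control replicate 2 had no Six2 UMI, which allows up to 0.311 CPM. Intervals and limits of this kind cover counting error only.

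Eya4 (chr10:23102963-23350786, minus strand), a co-activator known from hearing loss and heart muscle disease, shared the Hox 3 maximum. It was at 30.1 (95% Poisson interval 28.19 to 32.12) and 49.6 CPM (47.15 to 52.11) in control Hox 3 cells and at 25.8 (24.33 to 27.29) and 35.0 CPM (33.12 to 36.92) in null Hox 3 cells. In Hoxa2 cells it was at 5.47 and 6.94 CPM in the controls and 7.44 and 12.6 in the null libraries, and in cells without Hox at 8.59, 8.59, 10.6 and 12.7 CPM. The Hox 3 range of 25.8 to 49.6 CPM did not overlap those of the other Hox classes and of the classes outside the mesenchyme. Neural progenitor cells held 6.99 to 11.6 CPM of Eya4, neurons 1.83 to 4.29 and Sox10 cells 2.48 to 3.11.

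Eya2 (chr2:165595032-165771727, plus strand), a co-activator active in the cranial sensory placodes and ganglia, had the opposite distribution. In neurons it was at 46.3 and 69.2 CPM in the controls and 101 and 108 in the null libraries. That range did not overlap those of the Hox classes, Sox10 cells and neural progenitor cells. Mesenchymal cells of null replicate 2 with Dlx5 or Dlx6 and no Hand2 held 55.7 CPM, from 29 UMIs in 20 cells. Sox10 cells held 13.4, 10.8, 19.8 and 42.6 CPM and neural progenitor cells 4.13, 6.80, 6.93 and 11.6. In mesenchymal cells it was at 1.23 and 1.10 CPM in the controls, 4.01 in null replicate 1 and 19.2 in null replicate 2. The last library carried the neuronal RNA described above, and without the cells holding such UMIs the mesenchymal levels were 0.711, 0.848, 1.31 and 4.12 CPM. A noncoding gene on the opposite strand, Gm28163, overlaps Eya2.

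At E10.5 Six4 and Eya1 had their highest class medians in mesenchymal cells but differed less between axial levels, and Eya1 was also found in neurons. Among the Hox classes, Six4 and Eya1 were highest in cells without Hox and lowest in Hox 3 cells in both E9.5 libraries. Eya1 fell there from 11.5 to 3.55 CPM in the control and from 13.6 to 6.74 in the null library. Six4, which acts in muscle formation with other Six-family factors, had E10.5 medians of 21.5 CPM in Hoxa2 cells, 19.3 in cells without Hox and 18.3 in Hox 3 cells, with overlapping ranges, and 10.6 in Sox10 cells, 7.05 in neurons and 3.89 in neural progenitor cells. Eya1 (chr1:14168954-14310235, minus strand), mutated in branchio-oto-renal syndrome, had medians of 22.1 CPM in Hox 3 cells, 18.5 in Hoxa2 cells, 14.0 in neurons and 13.3 in cells without Hox, again with overlapping ranges, and 7.00 and 6.68 in Sox10 and neural progenitor cells. Six5, which lies beside the myotonic dystrophy repeat, and Eya3 (chr4:132638987-132724765, plus strand), a broadly expressed co-activator, varied least between class medians. Six5 medians ran from 5.71 CPM in neurons to 11.5 in neural progenitor cells, and Eya3 medians from 10.9 CPM in neurons to 18.8 in Hoxa2 cells.

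**Figure D1:**
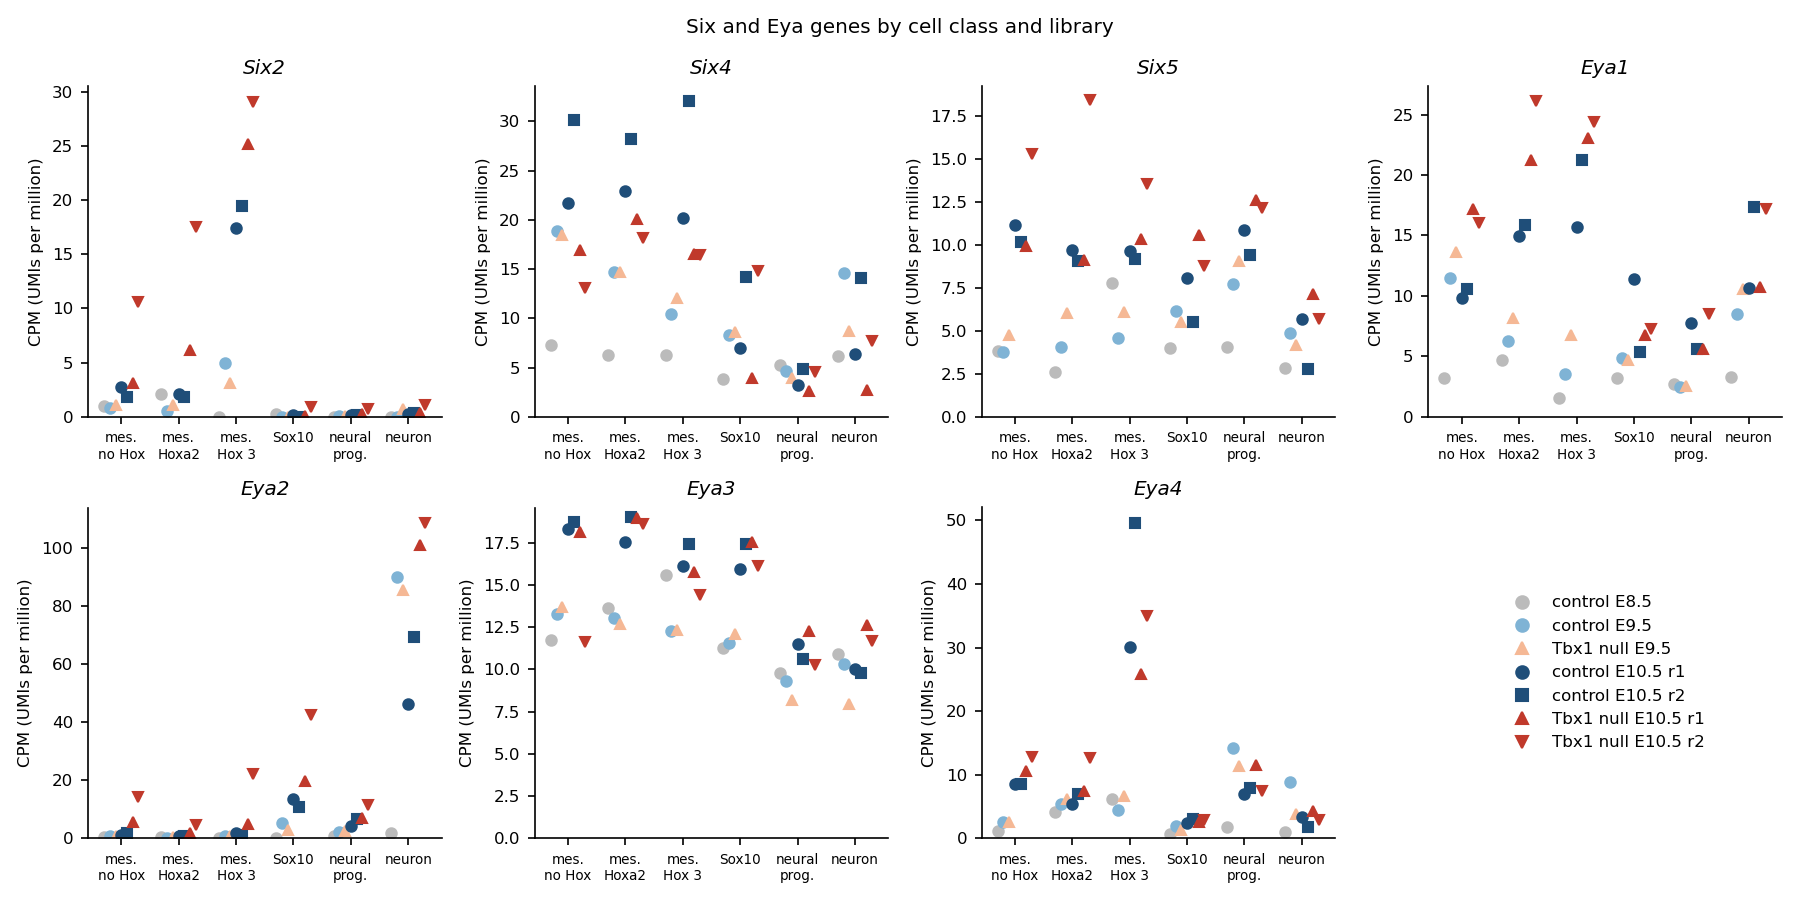
Level of each member (CPM, UMIs of the gene per 1000000 UMIs of the class) in 6 cell classes, with a point for each library. Six2 and Eya4 peak in Hox 3 mesenchymal cells at E10.5 (17.4 to 29.1 and 25.8 to 49.6 CPM), Eya2 peaks in neurons (46.3 to 108 CPM), and the medians of Six5 (5.71 to 11.5 CPM) and Eya3 (10.9 to 18.8 CPM) span less.

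The differences between classes were tested on summed counts per library and class with the library as a block, over the 6 libraries of E9.5 and E10.5 (edgeR quasi-likelihood test, Benjamini-Hochberg adjustment over all genes tested). In Hox 3 against Hoxa2 cells 4 of 7 members passed an adjusted p of 0.05, 3 higher and 1 lower, where 14.3% of all 13553 genes passed. Both classes had similar depth, with median UMIs per E10.5 cell of 17164 to 23494 in Hox 3 cells and 18012 to 26130 in Hoxa2 cells. Six2 rose by 2.26 on the log2 scale (SE 0.34, adjusted p = 0.00357) and was higher in Hox 3 cells in 6 of 6 libraries, with log2 ratios of 0.73 to 3.40. Eya4 rose by 1.58 (SE 0.38, adjusted p = 0.0262), in 5 of 6 libraries, with log2 ratios of −0.28 to 2.84. At E9.5 the Eya4 levels of the classes were close. Hox 3 and Hoxa2 cells had 4.42 and 5.37 CPM in the control and 6.70 and 6.11 in the null library. Eya2 rose by 1.36 (SE 0.20, adjusted p = 0.00292), and Eya3 fell by 0.20 (SE 0.05, adjusted p = 0.0452). Without cells holding neural UMIs the fold change was 2.65 for Six2 and 2.35 for Eya4, both still past the threshold, but −0.44 for Eya2 (adjusted p = 0.261) and −0.09 for Eya3 (adjusted p = 0.275). The Eya4 call was lost without control replicate 1 at E10.5 (1.36, adjusted p = 0.105), without control replicate 2 at E10.5 (1.25, adjusted p = 0.0662) and without null replicate 1 at E10.5 (1.52, adjusted p = 0.0986). Over 15 alternatives the adjusted p for Eya4 ran from 6.62e-05 to 0.105 and that for Six2 from 2.37e-06 to 0.0191, while Eya2 passed in 12 of 14 (up to 0.430) and Eya3 in 4 of 15 (up to 0.620).

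In Hoxa2 cells against cells without Hox, of the 7 members 0 passed (edgeR), where 0.313% of genes passed. DESeq2 called 1 member, with no share over all genes given here. In edgeR an unadjusted p under 0.05 was reached by 1 member and by 1433 of 13080 genes. The closest was Eya2, at −1.17 in Hoxa2 cells (SE 0.23, adjusted p = 0.0922) and lower in 6 of 6 libraries. The cells without Hox at E9.5 include those of the first arch, which was not dissected at E10.5, and the cells without Hox were shallower at E10.5, with medians of 13677 to 20010 UMIs. In the E10.5 libraries alone Eya2 (−1.23, adjusted p = 0.0158) and Eya1 (0.60, adjusted p = 0.00313) passed, and Eya4 was at −0.34 (adjusted p = 0.0686) against 0.15 over the 6 libraries.

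Along the arch, 5 of 7 members passed in Hand2 cells against proximal cells, 1 higher and 4 lower, where 31.2% of genes passed. The median log2 fold change was −0.65 over the members and 0.02 over all genes. Six2 fell by 1.90 in Hand2 cells (SE 0.32, adjusted p = 0.00313), Eya4 by 1.80 (SE 0.24, adjusted p = 0.0011) and Eya1 by 0.65 (SE 0.14, adjusted p = 0.0114). The same 3 genes remained past the threshold without cells holding neural UMIs, at −2.39, −1.90 and −1.01. Eya2 fell by 1.21 (adjusted p = 0.0249) and Eya3 rose by 0.18 (adjusted p = 0.0211), but without those cells the values were 0.31 (adjusted p = 0.527) and 0.04 (adjusted p = 0.542). Six4 was at 0.08 (adjusted p = 0.55) over all cells and passed at −0.26 without them (adjusted p = 0.00575), the single one of 15 alternatives in which it passed. Six2, Eya4 and Eya1 passed in 15 of 15 alternatives, Eya2 in 8 of 14 (adjusted p 0.00221 to 0.590) and Eya3 in 6 of 15 (adjusted p 0.0116 to 0.823).

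Crossing the axes gave high Six2 and Eya4 in proximal Hox 3 cells. In Hox 3 cells that were also proximal, Six2 was at 31.3 and 32.6 CPM in the controls and 27.7 and 33.9 in the null libraries, and in Hox 3 cells with Hand2 at 4.65 and 6.85 CPM in the controls and 19.0 and 16.7 in the null libraries. Eya4 was at 51.7 and 89.5 CPM in control proximal Hox 3 cells and 29.4 and 41.0 in null ones, and at 10.98 and 11.9 against 18.5 and 19.3 CPM in Hox 3 cells with Hand2. Hox 3 cells with Dlx5 or Dlx6 had 10.2 and 9.01 CPM of Six2 in the controls, but 34.1 in null replicate 1, more than its proximal square, from 55 cells, and 14.4 in null replicate 2, from 13 cells. These squares include cells holding neural UMIs, to an unlike degree between libraries. Over all Hox classes, leaving them out left 747 of 1105 and 2014 of 2168 proximal cells in the controls. In the null libraries it left 1133 of 1913 and 561 of 1448. Within proximal cells Six2 was lower at the Hoxa2 level, at 7.25 and 5.77 CPM in the controls and 10.4 and 23.8 in the null libraries. The test of the difference in genotype effect between axial levels is given further on, and that between positions was not run.

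**Figure D2:**
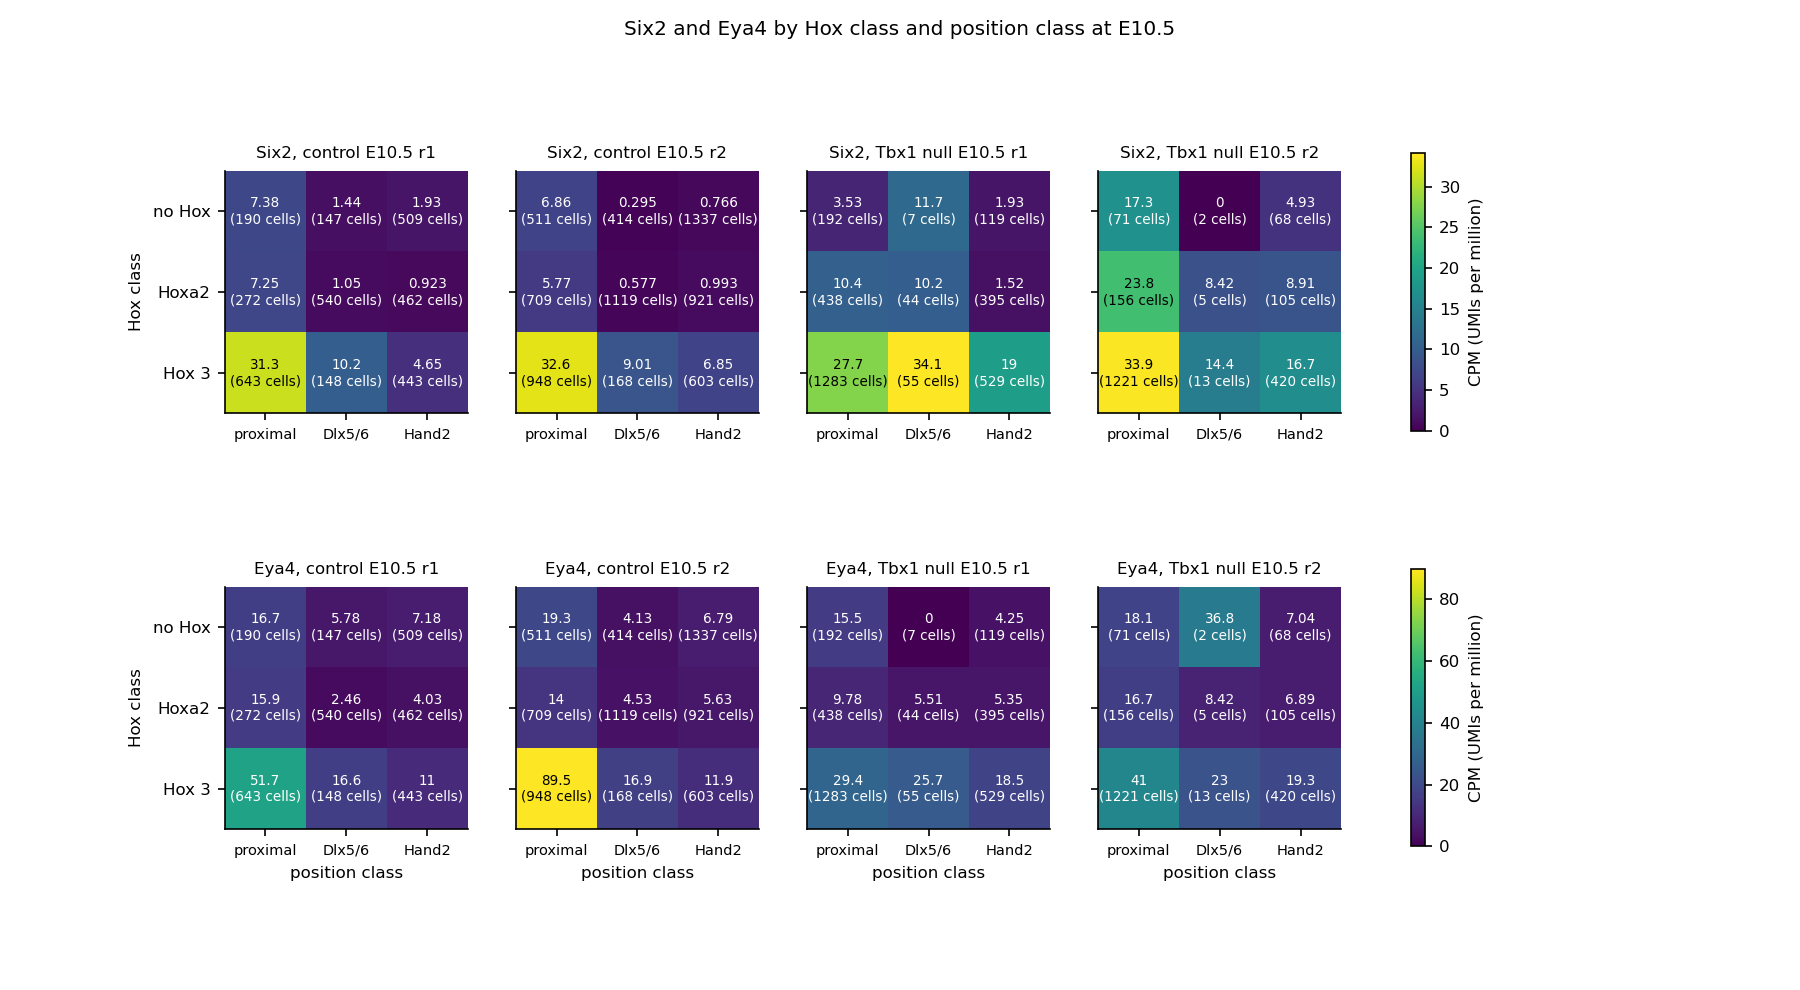
Level of Six2 (upper row) and Eya4 (lower row) in CPM, shown by colour and printed in each square with the number of cells, for Hox class by position class in the 4 E10.5 libraries. Proximal Hox 3 cells have 27.7 to 33.9 CPM of Six2 and 29.4 to 89.5 of Eya4, and squares with few cells, such as Dlx5/6 cells of the null libraries, carry little information.

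Sox10 cells differed from mesenchymal cells in 5 of 7 members, 1 higher and 4 lower, where 35.8% of genes passed. Six2 fell by 5.84 (SE 0.40, adjusted p = 2.71e-05), a value that rests on 0 to 15 Six2 UMIs in the Sox10 cells of each library and ran from −7.23 without null replicate 2 at E10.5 to −5.30 without null replicate 1 at E10.5. Eya4 fell by 2.45 (SE 0.30), Eya1 by 1.29 (SE 0.18) and Six4 by 1.14 (SE 0.24), whereas Eya2 rose by 2.51 (SE 0.30). Six5 (−0.15) and Eya3 (−0.05) did not pass. Neural progenitor cells differed from mesenchymal cells in 5 of 7 members, again 1 higher and 4 lower, where 46.9% of genes passed. Six2 fell by 5.43 (SE 0.21), Six4 by 2.39 (SE 0.15), Eya1 by 1.73 (SE 0.19) and Eya3 by 0.67 (SE 0.08), and Eya2 rose by 1.19 (SE 0.39, adjusted p = 0.0355). The Eya2 call was lost in the E10.5 libraries alone (0.96, adjusted p = 0.165) and was kept in 8 of 15 alternatives (adjusted p 3.25e-05 to 0.203). Eya4 was at −0.33 over the 6 libraries (SE 0.56, adjusted p = 0.663) and at −1.30 in the E10.5 libraries alone (adjusted p = 0.00327), the single one of 15 alternatives in which it passed. Neural progenitor cells held 14.2 and 11.3 CPM of Eya4 at E9.5, more than mesenchymal cells of that stage.

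**Figure D3:**
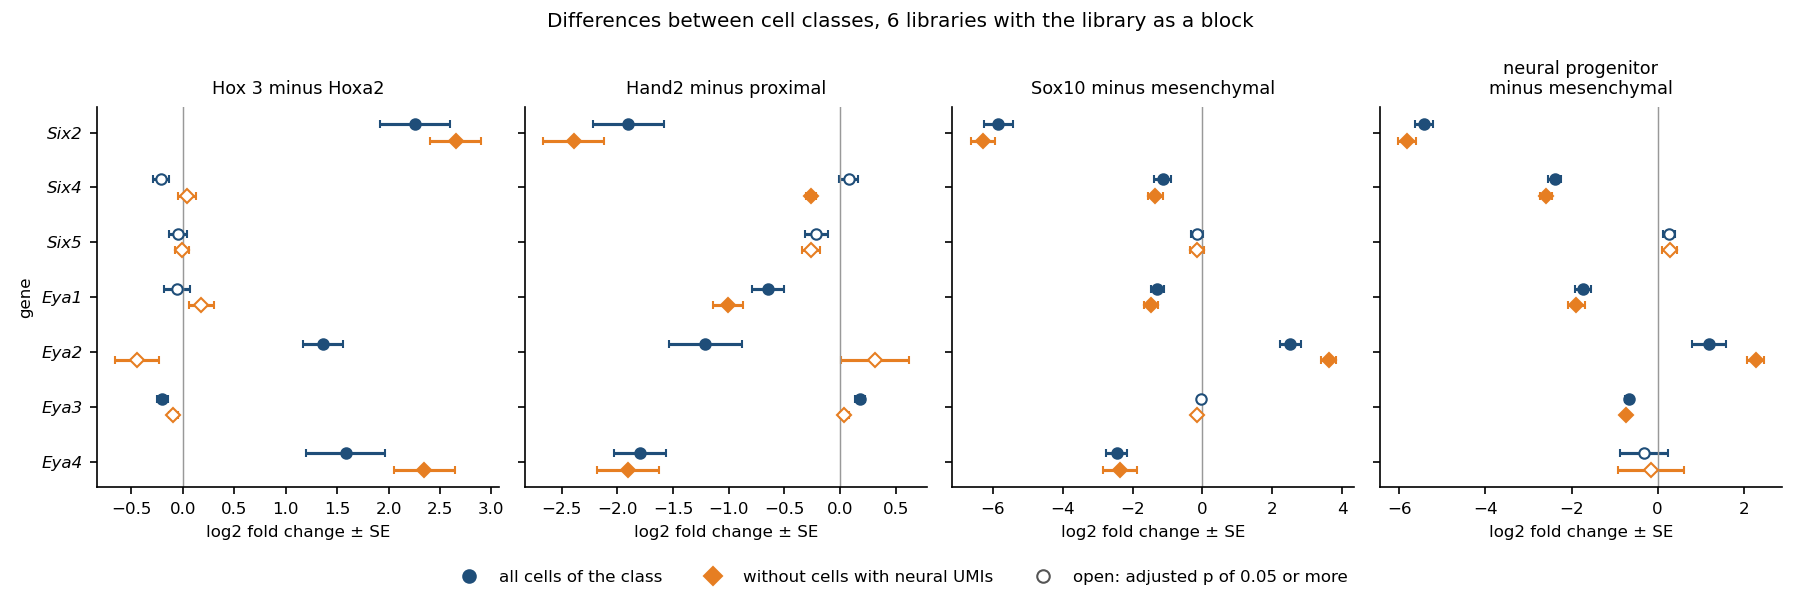
Log2 fold change of each member with its SE in 4 contrasts between cell classes (edgeR, library as a block, 6 libraries). Circles use all cells, diamonds leave out mesenchymal cells with neural UMIs, and open symbols did not pass an adjusted p of 0.05, so that the loss of the Eya2 call and the persistence of Six2 and Eya4 can be read in the Hox 3 and Hand2 panels.

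Across stages there was 1 library each at E8.5 and at E9.5 for the controls, and no test of stage was made. In control mesenchymal cells Six2 was at 1.04 CPM in the E8.5 library and 1.54 in the E9.5 library, and reached 8.30 and 6.602 in the E10.5 libraries. Eya4 was at 1.48, 3.34, and 15.8 and 19.0 CPM, and Eya1 at 3.30, 9.23, and 14.3 and 15.8. Six4 was at 7.16, 16.7, and 21.6 and 29.8 CPM. Six5 was at 3.86, 3.95, and 9.97 and 9.40 CPM, Eya3 at 11.99, 13.1, and 17.1 and 18.5, and Eya2 at 0.297, 0.57, and 1.23 and 1.10. Each of the 7 members was higher in both E10.5 control libraries than in the control libraries of E8.5 and E9.5. The share of all genes with that order is not given here, so the count cannot be read as a trait of the members. Dissection and, for E8.5, the kit changed with the stage. In summed counts, fewer cells expressing a gene and less RNA per cell cannot be told apart.

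With every cell thinned to 5000 UMIs, the share of control mesenchymal cells with a Six2 UMI was 0.726% at E8.5 (95% Clopper-Pearson interval 0.314 to 1.425), 0.712% at E9.5 (0.491 to 0.999), and 3.41% (2.805 to 4.094) and 3.24% (2.822 to 3.691) at E10.5. Before thinning these shares were 2.45%, 3.30%, 10.3% and 8.17%. In Sox10 cells thinned alike, 0 cells held a Six2 UMI in 6 libraries, and 0.543% did in null replicate 2 at E10.5. For Eya4 the thinned shares were 0.454%, 2.01%, 7.28% and 8.22%. In Hox 3 cells Six2 was at 4.94 CPM at E9.5 in the control, and the few Hox 3 cells of E8.5 had no Six2 UMI, which allows up to 4.67 CPM. Neurons had Eya2 at 1.90 CPM at E8.5, from 4 UMIs in 99 cells, and at 89.9 CPM at E9.5 in the controls. The class itself differed between these libraries. Its neuronal markers Dcx and Stmn2 were at 0.474 and 86.8 CPM at E8.5 and at 39.8 and 274 CPM at E9.5.

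**Figure D4:**
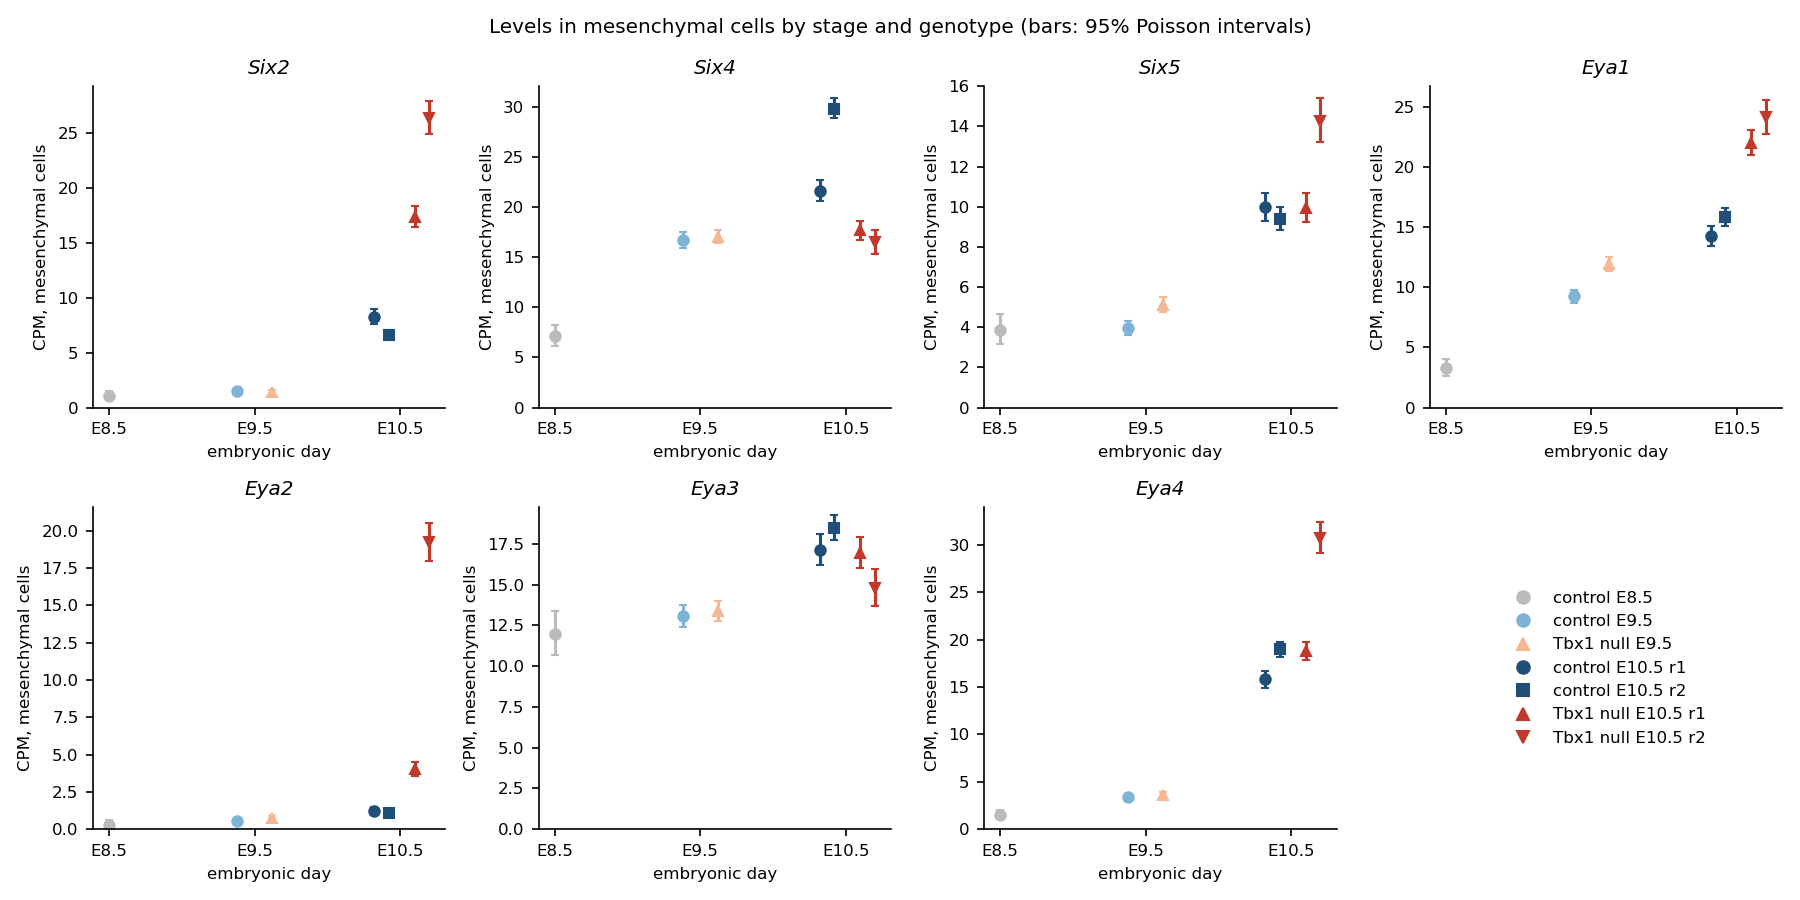
Level of each member in mesenchymal cells (CPM) by embryonic stage, with a point for each control and Tbx1 null library and bars for the 95% Poisson interval of counting. Six2 and Eya4 are low at E8.5 and E9.5 and reach 6.602 to 26.4 and 15.8 to 30.7 CPM at E10.5.

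The question that the genotypes address is what loss of Tbx1, a transcription factor of the pharyngeal endoderm, ectoderm and mesoderm around them, does to NCCs. In all mesenchymal cells at E10.5, 3 of 7 members were higher in both null libraries than in both controls (Six2, Eya1 and Eya2), as were 36.0% of all genes, and 2 of 7 were lower in both (Six4 and Eya3), as were 13.9% of all genes. Six5 and Eya4 overlapped. Without cells holding neural UMIs the Eya3 groups overlapped as well, at 17.9 and 18.7 CPM against 18.4 and 16.4. In the test of the same sums 0 of 7 members passed (edgeR), where 0.0316% of the 15812 genes passed. DESeq2 called 2 of 7, with no share over all genes given here. In edgeR an unadjusted p under 0.05 was reached by 3 of 7 members and by 2241 of the 15812 genes. The median log2 fold change was 0.31 over the members and −0.02 over all genes.

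Six2 was at 8.30 and 6.602 CPM in control mesenchymal cells and at 17.4 and 26.4 in null cells. The null libraries were both above the controls, by 1.36 on the log2 scale (SE 0.25, adjusted p = 0.224). The makeup of the class moved with this value, as Hox 3 cells were 1234 of 3354 and 1719 of 6730 mesenchymal cells in the controls and 1867 of 3062 and 1654 of 2061 in the null libraries. Hand2 cells numbered 1414 and 2861 in the controls and 1043 and 593 in the null libraries. Within Hox 3 cells the Six2 difference was 0.39 (SE 0.21, adjusted p = 0.495), and within proximal cells 0.26 (adjusted p = 0.735), where the levels were 22.2 and 18.5 against 21.4 and 32.1 CPM and overlapped. Leaving out cells holding neural UMIs, after which 722 of the 1654 Hox 3 cells of null replicate 2 remained, moved the Hox 3 difference to 0.91 (SE 0.23, adjusted p = 0.321), at 21.6 and 20.1 CPM in the controls and 34.5 and 52.3 in the null libraries. In proximal cells the levels were then 32.5 and 19.3 CPM against 30.9 and 64.9, and still overlapped. Within Hoxa2 cells it was 2.34 (SE 0.44, adjusted p = 0.104), within Hand2 cells 2.17 (SE 0.27, adjusted p = 0.0704) and in cells without Hox 1.37 (SE 0.54, adjusted p = 0.237), the last moving to 0.33 without null replicate 2 and to 2.11 without null replicate 1. The Hoxa2 value was 1.57 without null replicate 2 and 2.94 without null replicate 1. The makeup of both classes moved too. Proximal cells were 272 of 1274 and 709 of 2749 Hoxa2 cells in the controls and 438 of 877 and 156 of 266 in the null libraries, and Hox 3 cells were 443 of 1414 and 603 of 2861 Hand2 cells in the controls and 529 of 1043 and 420 of 593 in the null libraries. Their part in the Six2 differences was not tested. In Hand2 cells Six2 was at 2.58 and 2.38 CPM in the controls and 10.5 and 14.1 in the null libraries, and without cells holding neural UMIs at 2.42 and 2.35 against 10.8 and 15.7. In Hoxa2 cells Six2 passed the threshold in 6 of 12 alternatives, with adjusted p from 5.08e-09 to 0.163, DESeq2 and the replicate block among those that passed. In 3 of these 6 a library was left out, and a null arm left with 1 library was taken to vary like the controls.

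Six4 was at 21.6 and 29.8 CPM in control and 17.7 and 16.5 in null mesenchymal cells, a difference of −0.77 (SE 0.25, adjusted p = 0.288). It was lower in both null libraries also in cells without Hox, at 21.7 and 30.1 against 16.9 and 13.1 CPM (−0.86, SE 0.26, adjusted p = 0.144). Without cells holding neural UMIs the null levels of 21.5 and 23.7 CPM came close to the lower control at 23.8. Six5 was at 9.97 and 9.40 CPM against 9.94 and 14.3, with a difference of 0.13, and its groups overlapped.

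Eya1 was at 14.3 and 15.8 CPM in control and 22.0 and 24.1 in null mesenchymal cells, and at 14.8 and 15.9 against 25.6 and 32.3 without cells holding neural UMIs. The groups did not overlap in either set, and the difference over all cells was 0.43 (SE 0.20, adjusted p = 0.393). In Hand2 cells Eya1 was at 8.90 and 9.44 CPM against 19.3 and 17.7 (0.89, adjusted p = 0.273), and in proximal cells at 19.0 and 23.0 against 23.3 and 27.1 CPM.

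Eya2 was the single member past the threshold in a genotype comparison. In cells without Hox, of which the null libraries had 318 and 141, it rose by 2.63 (SE 0.48, adjusted p = 0.0309, edgeR), from 1.09 and 1.66 CPM in the controls to 5.74 and 14.2 in the null libraries. There 1 of 7 members passed, where 1.88% of genes passed. An unadjusted p under 0.05 was reached by 4 of 7 members and by 2154 of 12756 genes (edgeR). The neuronal marker sum of the same cells was 8.6 and 9.5 CPM in the controls and 19.7 and 108.9 in the null libraries. Without cells holding neural UMIs the Eya2 difference was 1.85 (adjusted p = 0.17), and without null replicate 2 it was 1.88 (adjusted p = 0.0596), in a fit that takes the single null library to vary like the controls. The adjusted p ran from 2.31e-08 to 0.349 over 12 alternatives. In all mesenchymal cells the difference was 3.07 (SE 0.65, adjusted p = 0.263), with neuronal sums that moved alike, and 1.71 without null replicate 2. The part of neuronal RNA in these differences was not tested beyond this.

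Eya4 was at 15.8 and 19.0 CPM in control and 18.8 and 30.7 in null mesenchymal cells, and overlapped (0.31, SE 0.26, adjusted p = 0.598). Its direction differed between positions, at 38.2 and 50.1 against 23.4 and 37.4 CPM in proximal cells (−0.69, adjusted p = 0.576) and 7.47 and 7.66 against 11.98 and 15.9 CPM in Hand2 cells (0.74, adjusted p = 0.364). In proximal cells this did not hold without cells holding neural UMIs, where Eya4 was at 49.4 and 51.0 CPM in the controls, 24.1 in null replicate 1 and 63.3 in null replicate 2, which was then the highest library. Eya3 was at 17.1 and 18.5 CPM against 17.0 and 14.8, lower in both null libraries by a margin smaller than the gap between the null libraries (−0.34, SE 0.23, adjusted p = 0.527).

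**Figure D5:**
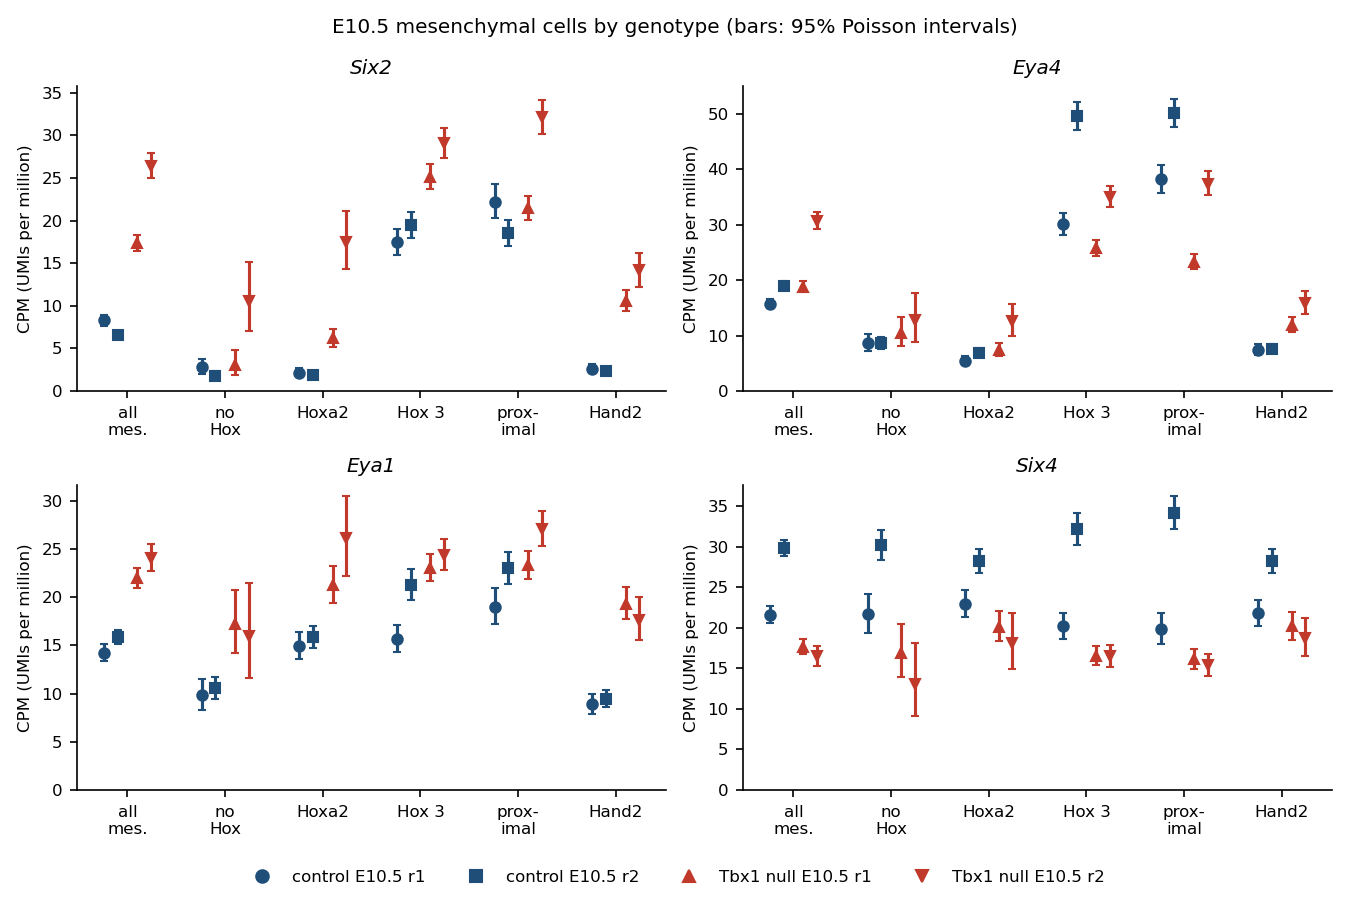
Levels of Six2, Eya4, Eya1 and Six4 (CPM, 95% Poisson bars) in control and Tbx1 null libraries at E10.5, over all mesenchymal cells, 3 Hox classes, proximal cells and Hand2 cells. Six2 in Hand2 cells is at 2.58 and 2.38 CPM in the controls and 10.5 and 14.1 in the null libraries, whereas in proximal cells the groups overlap.

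In the other classes tested no genotype call was made among the members. Neurons, where Eya2 was highest, were not tested for genotype. In Hoxa2 cells 0 of 7 passed (edgeR), where 0.182% of genes passed, and an unadjusted p under 0.05 was reached by 3 members and 1779 of 13727 genes. In Hox 3 cells 0 of 7 passed, where 0.0137% of genes passed, and 2 members and 1697 of 14639 genes reached the unadjusted level. DESeq2 called 1 member in each of these classes, with no share over all genes given here. In Sox10 cells 0 of 6 tested members passed (edgeR, 0 with DESeq2), where 0.0158% of genes passed. An unadjusted p under 0.05 was reached there by 1 member and 1261 of 12659 genes. Eya2 was at 1.33 (SE 0.36, adjusted p = 0.337, edgeR) over the 4 libraries and at 0.70 without null replicate 2. The neuronal sum in Sox10 cells was 77.2 and 89.4 CPM in the controls and 82.1 and 240.3 in the null libraries. In neural progenitor cells 0 of 6 passed (edgeR, 0 with DESeq2), where 0.0228% of genes passed. An unadjusted p under 0.05 was reached there by 0 members and 988 of 13170 genes.

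Whether the genotype difference itself depended on axial level was tested as an interaction of genotype with Hox 3 against Hoxa2 class. Six2 was at −1.74 (SE 0.38, adjusted p = 0.112) and Eya4 at −0.96 (SE 0.18, adjusted p = 0.0680), the negative sign meaning a null minus control difference that was lower in Hox 3 than in Hoxa2 cells. The Six2 value ran from −2.53 without null replicate 1 to −1.26 without null replicate 2. For Eya4 the difference was 0.49 (SE 0.30, adjusted p = 0.525) in Hoxa2 cells and −0.57 (SE 0.30, adjusted p = 0.479) in Hox 3 cells. Of the 7 members 0 passed (edgeR), where 0.653% of genes passed. An unadjusted p under 0.05 was reached by 3 members and by 1801 of 15000 genes. DESeq2 called 2 members, Six2 and Eya4, with no share over all genes given here. Over 11 alternatives the adjusted p ran from 3.41e-05 to 0.277 for Six2, past the threshold in 5, and from 0.000295 to 0.331 for Eya4, past it in 6. Without cells holding neural UMIs they were −1.30 (adjusted p = 0.0524) and −0.40 (adjusted p = 0.331).

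At E9.5 there was 1 library per genotype, prepared with different kits, so no test was made and differences are log2 ratios of null over control with a counting interval, taken from CPM scaled by the TMM factors of the libraries (scaled CPM) with a pseudocount of 0.5 UMIs. Over all mesenchymal cells 0 of 7 members reached a log2 ratio of 0.5 in either direction, against 17.7% of all genes with at least 10 UMIs. Eya1 was at 9.42 scaled CPM in the control and 11.7 in the null library (0.31, interval 0.20 to 0.42), and Six2 at 1.57 and 1.35 scaled CPM (−0.21, interval −0.51 to 0.09). Six5 had a ratio of 0.31 (interval 0.14 to 0.49) and Eya2 of 0.32 (interval −0.13 to 0.80), and Six4, Eya3 and Eya4 had ratios of −0.03, −0.02 and 0.06. In Hox 3 cells 3 of 7 members reached 0.5, against 19.4% of genes, and in Hoxa2 cells 3 of 7, against 18.2%. In Hox 3 cells Eya1 was higher in the null library (0.84, interval 0.43 to 1.27) and Six2 lower (−0.74, interval −1.21 to −0.29), with 103 Six2 UMIs in the control and 66 in the null library. Eya4 was higher there too (0.52, interval 0.13 to 0.92). With cells thinned to 5000 UMIs the signs of Six2 and Eya4 in Hox 3 cells turned, to 0.047 and −0.37, and Eya1 was at 2.28. Before thinning the median Hox 3 cell held 25213.5 UMIs in the control and 21749 in the null library. Thinned ratios thus rest on far fewer UMIs and are given without intervals, so a turned sign does not show an effect of depth. In Hoxa2 cells Six5 was higher in the null library (0.53, interval 0.10 to 0.98), whereas Six2 (0.98, 9 against 20 UMIs) and Eya2 (1.09, 4 against 10 UMIs) had intervals that included 0 and were at −0.51 and −2.10 with thinned cells.

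Within single cells, Six2 and Eya4 were found together more often than their separate frequencies would give. Among mesenchymal cells thinned to 5000 UMIs, 30 of 3200 and 71 of 6614 control cells at E10.5 held both, which is 3.78 and 4.03 times the product of the separate shares. In the null libraries 28 of 3035 and 56 of 2054 cells held both, at 1.64 and 2.19 times the product, lower than in each control. The ratio was 1.39, 1.43, 1.32 and 2.11 for Six2 with Eya1, 2.096, 1.60, 0.836 and 1.923 for Eya1 with Eya4, and 1.42, 1.31, 1.39 and 1.32 for Six4 with Eya1. The cells of a library are not replicates, and shared axial and arch position enters each of these ratios.

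Over 41 sums of counts by class and library, the genes most like each member were found by the correlation of log levels. These sums share libraries and depth, and the values are descriptions. For Six2 they were Pdgfrl (0.898), Efemp1 (0.892) and Bdnf (0.860), and for Eya4 Rspo3 (0.810), Gas1 (0.790) and Ptprk (0.785). For Eya2 they were Insm1 (0.957) and Pou4f1 (0.941), transcription factors of differentiating and sensory neurons, and Fgd4 (0.937). Eya1 was closest to Rai14 (0.875), Six4 to Cald1 (0.839), Six5 to Tcf19 (0.915) and Eya3 to Nfya (0.894). Between members the correlation was 0.722 for Six2 with Eya4 and 0.674 for Six2 with Eya1.

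Among 14 network partners (Dach1, Dach2, Sobp, Tle1 to Tle4 and 7 Pax genes), 7 of 12 tested passed in Hox 3 against Hoxa2 cells, against 14.3% of all genes. Those that rose were Pax6 by 2.27, Pax3 by 2.06, Dach2 by 1.39, Dach1 by 0.63 and Tle4 by 0.36. Pax9, a factor of pharyngeal endoderm and arch mesenchyme, fell by 1.91 and Tle3 by 0.40. The median was 0.41 on the log2 scale against −0.02 over all genes. Without cells holding neural UMIs 7 partners passed in this contrast as well. Shares over all genes are not given here for that set of cells. In Hand2 cells 11 of 12 passed against 31.2% of all genes, 9 of them lower, among them Dach1 (−1.83), Dach2 (−2.03) and Sobp (−1.44), and 6 passed without cells holding neural UMIs. Pax3, Pax6 and Pax7 mark dorsal and ventricular neural tissue as well, and the neural progenitor sum in Hox 3 cells was 85.6, 16.0, 124.2 and 218.7 CPM at E10.5, against 9.2, 1.9, 27.5 and 57.2 in Hoxa2 cells. Pax6 is itself part of that sum, and the part of neural RNA in the partner calls was not tested. Hoxa2 cells against cells without Hox gave 1 of 11, Pax9 (1.47, adjusted p = 0.0463), against 0.313% of all genes.

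Sox10 cells differed from mesenchymal cells in 6 of 11 partners against 35.8% of all genes, and in 10 without cells holding neural UMIs, with Pax3 at 2.70, Pax9 at −6.65, Dach1 at −2.45 and Sobp at −1.86. The 35.8% belongs to the count of 6. No share over all genes is given here for the set without cells holding neural UMIs. Neural progenitor cells differed in 7 of 11 against 46.9% of all genes, Pax6 left out because it defines the class, with Pax7 at 3.76, Pax3 at 3.54, Dach2 at 1.85 and Dach1 at 1.47 higher and Tle2 at −5.14, Pax9 at −4.04 and Tle1 at −0.63 lower. Between genotypes, 3 of 10 partners passed in cells without Hox (edgeR, against 1.88% of all genes), which were Pax3 (2.93, adjusted p = 0.0131), Dach2 (1.94, adjusted p = 0.0192) and Pax6 (2.64, adjusted p = 0.0493), and 0 passed there without cells holding neural UMIs. Pax6 is itself 1 of the genes by which those cells were removed. In the other 5 classes tested 0 partners passed (edgeR), where 0.0137% to 0.182% of all genes passed. An unadjusted p under 0.05 was reached by 0 to 6 partners, and by 988 to 2241 of the 12659 to 15812 genes tested. DESeq2 called 0 to 2 partners, with no share over all genes given here.

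Of 7 genes described as targets of Six-family or Eya proteins, 4 of 5 tested passed in Hox 3 against Hoxa2 cells (14.3% of all genes), with the membrane linker Ezr at 1.31, Igfbp5 at 1.27 and Sall1 at 0.79 higher and the cyclin Ccnd1 at −0.25. Without cells holding neural UMIs 3 passed, with no share over all genes given here. Ezr was then at 0.78, and Sall1 missed the threshold at 0.83 (adjusted p = 0.0503). Hoxa2 cells against cells without Hox gave 0 of 5 (edgeR, 0 at an unadjusted p under 0.05, and 0 with DESeq2, against 0.313% of all genes). In Hand2 cells 3 of 5 passed (31.2% of all genes), with Ezr at −2.83, Igfbp5 at −1.25 and Ccnd1 at 0.60. In Sox10 cells 4 of 6 passed (35.8% of all genes), with the growth factor Gdnf at 4.44, Sall1 at −1.36, Ezr at −1.08 and Slc12a2 at −0.24, and in neural progenitor cells 2 of 5 (46.9% of all genes), with Ezr at 1.64 and Ccnd1 at 0.38. The Gdnf value is set against a low mesenchymal level, with a mean of 0.233 CPM in the genotype test of all mesenchymal cells at E10.5. Between genotypes 0 targets passed in any class tested (edgeR), where 0.0137% to 1.88% of all genes passed. An unadjusted p under 0.05 was reached by 0 to 3 targets, and by 988 to 2241 of the 12659 to 15812 genes tested. DESeq2 called 0 or 1 target, with no share over all genes given here.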

How the data were processed

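Single-cell RNA-seq was made with 10x Genomics kits from sorted EGFP-positive cells of 4 control and 3 Tbx1 null libraries. The authors deposited raw UMI counts per gene and cell barcode, which per the submitters' processing notes came from Cell Ranger 6.0.1 with the mm10 genome. No value had been normalized, and each count is a molecule, so amplification copies are collapsed.

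Barcodes below 1000 detected genes or above 10% mitochondrial UMIs were dropped, and the highest doublet scores (Scrublet in scanpy 1.11.5, 0.8% of cells per 1000 barcodes) were removed. Counts were summed per library and class (Python 3.11.15) and tested with edgeR 4.0.16 in R 4.3.3 (TMM, filterByExpr, quasi-likelihood F-test, Benjamini-Hochberg adjustment over all genes, adjusted p under 0.05). There were 12 such fits. Genotype was tested at E10.5 with 2 libraries per group, and class contrasts used 6 libraries with the library as a block. The E9.5 genotypes, with 1 library each, were compared by ratio of TMM-scaled CPM with a pseudocount of 0.5 UMIs and a size rule of 0.5 on the log2 scale. Shares of cells were taken after thinning to 5000 UMIs, with 95% intervals from scipy 1.17.1. P-values of the genotype tests cover the spread between libraries, each a separate pool of embryos. Those of the class contrasts and the interaction cover how the class difference within a library varies over libraries.

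Every member was named, with the partner and target lists in full counts. The members, lists and tests were chosen with earlier results of these data known. Genes most like a member were the 3 highest correlations over sums of at least 50 cells among genes reaching 20 CPM. Alternatives were DESeq2 1.42.0, no filter, thinned cells, a mesenchymal minimum of 4 UMIs, doublets kept, a replicate block, E10.5 alone, E8.5 added and each library left out. The set without cells holding neural UMIs and the position subsets were added after the data were seen. The tests were tried on simulated counts. Sequences came from RefSeq tables (GRCm38.p6), and Eya1 and Eya2 promoters and protein sequences were not analysed here.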

Additional observations from a re-analysis of the deposited data

Results flagged for a closer look

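In Hox 3 mesenchymal cells Six2 was lower in the Tbx1 null than in the control library at E9.5 (log2 ratio −0.74), whereas at E10.5 both null libraries were above both controls (25.1 and 29.1 against 17.4 and 19.4 CPM). The E9.5 ratio rests on 103 and 66 UMIs, and the difference between stages was not tested. With cells thinned to 5000 UMIs it was 0.05, from fewer UMIs and without an interval.

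In Sox10 cells Eya2 was lower in the null library at E9.5 (log2 ratio −0.85, interval −1.54 to −0.22, 70 against 29 UMIs), whereas at E10.5 both null libraries were higher (19.8 and 42.6 against 13.4 and 10.8 CPM). With thinned cells the E9.5 ratio was 0.70, from fewer UMIs and without an interval, and the difference between stages was not tested.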

How the results depend on the processing

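Six2 kept its direction and its call in Hox 3 against Hoxa2 cells, in Hand2 against proximal cells and in Sox10 and neural progenitor against mesenchymal cells under every alternative run, as did Eya4 and Eya1 in Hand2 and Sox10 cells and Six4 in Sox10 and neural progenitor cells. Replicate numbers did not pair the samples (r = 0.0173 over 15812 genes between the replicate differences of the controls and of the null libraries), and the replicate block called 0 members in all mesenchymal, Hox 3, Sox10 and neural progenitor cells. Genotype rests on 2 pools a side, and where leaving out a library left 1 in an arm, that library was taken to vary like the others. Class rules rest on detected UMIs. The cause of each change below was not tested. Shares over all genes are not given for the alternatives. A change in member calls therefore cannot be told from a change in calls over all genes.

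The genotype test in all mesenchymal cells called 0 members, 2 with DESeq2 and no filter and 1 with thinned cells, and 0 to 1 with each library left out. The genotype test in cells without Hox called 1 member, 3 with no filter and the replicate block and 0 with thinned cells, a minimum of 4 UMIs and no cells with neural UMIs, and 0 to 1 with each library left out. The genotype test in Hoxa2 cells called 0 members, 1 with DESeq2 and the replicate block and 2 with no filter, and 0 to 2 with each library left out. The genotype test in Hox 3 cells called 0 members, 1 with DESeq2, and 0 to 1 with each library left out. The genotype test in Sox10 cells called 0 members, 1 with no filter, and 0 to 1 with each library left out. The interaction called 0 members, 2 with DESeq2 and no filter and 1 with thinned cells, and 0 to 2 with each library left out. Hoxa2 cells against cells without Hox called 0 members, 1 with DESeq2 and no filter and 2 with E10.5 alone. Hox 3 against Hoxa2 cells called 4 members, 2 with thinned cells, a minimum of 4 UMIs and no cells with neural UMIs, and 2 to 4 with each library left out. Hand2 against proximal cells called 5 members, 3 with thinned cells, a minimum of 4 UMIs and E10.5 alone, and 3 to 5 with each library left out. The E9.5 comparison of all mesenchymal cells (by size) called 0 members, 1 with a minimum of 4 UMIs and no cells with neural UMIs. In Hox 3 cells and in Hoxa2 cells the same size rule was reached by 3 members each, as given above.

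With proximal cells alone the sign turned for Eya4 to −0.69 in the genotype test in all mesenchymal cells. With a minimum of 4 UMIs the sign turned for Eya4 to −0.067 in the genotype test in cells without Hox, for Eya1 to 0.080 in Hox 3 against Hoxa2 cells, for Six4 to −0.16 in Hand2 against proximal cells. With no cells with neural UMIs the sign turned for Eya4 to −0.49 in the genotype test in cells without Hox, for Six4 to 0.041 and Eya1 to 0.042 in the interaction, for Six5 to −0.026 in Hoxa2 cells against cells without Hox, for Six4 to 0.042, Eya1 to 0.18 and Eya2 to −0.44 in Hox 3 against Hoxa2 cells, for Six4 to −0.26 and Eya2 to 0.31 in Hand2 against proximal cells. With thinned cells the sign turned for Eya3 to 0.30 in the genotype test in neural progenitor cells, for Six5 to 0.045 and Eya2 to −1.21 in the interaction, for Six2 to −0.029 and Eya3 to −0.0079 in Hoxa2 cells against cells without Hox, for Six4 to 0.24 and Eya1 to 0.14 in Hox 3 against Hoxa2 cells, for Six2 to 0.047 in Hox 3 cells at E9.5, Eya4 to −0.37 in Hox 3 cells at E9.5 and Eya2 to 0.70 in Sox10 cells at E9.5. It also turned for Six2 and Eya2 in Hoxa2 cells at E9.5, as given above. With E10.5 alone the sign turned for Six4 to 0.15, Six5 to −0.038 and Eya4 to −0.34 in Hoxa2 cells against cells without Hox, for Eya1 to 0.094 in Hox 3 against Hoxa2 cells, for Eya3 to 0.032 in Sox10 against mesenchymal cells. With E8.5 added the sign turned for Six5 to −0.00068 in Hoxa2 cells against cells without Hox.

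With each library left out in turn, some log2 values changed sign. In the genotype test in all mesenchymal cells they ran from −0.040 to 0.32 for Six5. In the genotype test in cells without Hox they ran from −0.23 to 0.40 for Six5. In the genotype test in Hoxa2 cells they ran from −0.11 to 0.77 for Six5. In the genotype test in Hox 3 cells they ran from −0.036 to 0.45 for Eya1. In the genotype test in Sox10 cells they ran from −1.52 to 0.38 for Six4, −0.75 to 0.31 for Eya1, −0.11 to 0.042 for Eya3 and −0.29 to 0.055 for Eya4. In the genotype test in neural progenitor cells they ran from −0.62 to 0.13 for Six4, −0.36 to 0.25 for Eya1, −0.23 to 0.081 for Eya3 and −0.080 to 0.60 for Eya4. In the interaction they ran from −0.48 to 0.13 for Six5. In Hoxa2 cells against cells without Hox they ran from −0.048 to 0.27 for Six2, −0.12 to 0.039 for Six4, −0.022 to 0.067 for Six5, −0.058 to 0.29 for Eya1, −0.019 to 0.098 for Eya3 and −0.072 to 0.31 for Eya4. In Hox 3 against Hoxa2 cells they ran from −0.090 to 0.034 for Six5 and −0.16 to 0.037 for Eya1. In neural progenitor against mesenchymal cells they ran from −0.77 to 0.034 for Eya4.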

Other observations

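At E8.5, 1679 of 5593 kept cells met both the mesenchymal and the Sox10 minimum and entered no class.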
